A study of Mus musculus with 20 samples.

Results

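Building the septa of the heart depends on a set of transcription factors and chromatin regulators that are active together in the cardiac progenitors, the muscle and the cushion mesenchyme, and 37 of these genes are described here out of 48795 genes in the expression table. They were chosen by name, for known roles in heart development or in congenital heart defects. No measured value set the choice, but earlier results of these data were known when it was made. All 37 passed the filter on low values (a normalized count, averaged over the 20 hearts, of 10 or more), as did 15304 genes in all. By role, 5 are GATA factors and their FOG cofactors, 4 are homeodomain and TALE factors, 5 are T-box factors, 2 are HAND factors, 5 are MADS-box and TEAD factors, 3 are forkhead factors, 5 are nuclear receptors, zinc finger and SOX factors, and 8 are chromatin regulators and coactivators.

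GATA, T-box, NKX2-5, MEF2 and HAND proteins bind enhancers side by side and switch on the genes of heart muscle, while remodelling complexes such as BAF and enzymes that write or read histone marks open or close those enhancers. Many of these genes are dosage sensitive: in people and in mice, losing 1 of the copies of GATA4, TBX5, NKX2-5, TBX1, CHD7 or KMT2D is a known cause of septal or outflow tract defects. Down syndrome also brings heart septal defects, and the study asked what the extra gene copies, and the extra copy of Dyrk1a among them, do to the embryonic heart.

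Whole hearts were taken from mouse embryos at E13.5, shortly before septation ends, and polyadenylated RNA of each heart was sequenced. The WT group held 10 hearts, littermates of the mutants, and the labels do not say which WT heart belonged with which mutant litter. The Dp1Tyb group held 5 hearts with a duplication of the Lipi to Zbtb21 interval of chromosome 16, which gives 3 copies of every gene in it and is a mouse model of Down syndrome. The Dp1TybDyrk1a+/+/- group held 5 hearts that carried the same duplication together with a null allele of Dyrk1a (Dyrk1atm1Mla), which leaves 2 functional copies of that kinase gene. The study bred these mice as a strain of their own, with WT embryos of the same litters as controls. The duplication and the null allele are inherited and so present in every cell of the embryo, not in the heart alone. None of the 37 genes lies within the duplicated interval on GRCm38, so each was present in the normal 2 copies in all groups; Tbx1 and Crebbp are on chromosome 16 but outside the interval. Nothing in the labels gives the sex of an embryo.

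Values are log2 normalized counts, as deposited, and a difference between groups is a log2 fold change. Dyrk1a itself averaged 11.37 ± 0.0441 (SD, n = 10) in WT, 11.69 ± 0.0401 (SD, n = 5) in the Dp1Tyb hearts and 11.76 ± 0.0561 (SD, n = 5) in Dp1TybDyrk1a+/+/- hearts. Since the null allele lacks only some exons and the value sums reads over the whole gene, this level does not check the third label. Cardiomyocyte markers summed to 446846 to 594988 normalized counts in WT hearts, 451011 to 515903 in Dp1Tyb and 485491 to 529398 in Dp1TybDyrk1a+/+/- hearts, against 43 to 52 for liver markers and 18 to 19 for skeletal muscle markers over all hearts. In bulk RNA, fewer cells of a type and less RNA per cell cannot be told apart. Xist was above 10 on the log2 scale in 3 of 10 WT, 4 of 5 Dp1Tyb and 1 of 5 Dp1TybDyrk1a+/+/- hearts.

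Over all genes tested, 1 heart stood apart. Dp1TybDyrk1a+/+/- heart 2 was the highest of its group for 30 of the 37 genes and the lowest for 1, and it was at an end of its group for 76% of all genes tested, compared with 28.4% to 34.4% for the other 4 hearts. Its difference from the WT median was 0.09 larger in genes with a transcript of 5 kb or longer than in genes under 2 kb, while the same contrast lay between -0.04 and 0.02 in the other 19 hearts; 16 of the 37 genes have a transcript of 5 kb or longer. Among the WT hearts, heart 6 was highest for 18 of the 37 genes. It was at an end of the WT group for 19 of the 37, and for 46% of all genes tested. Among the Dp1Tyb hearts, heart 5 was highest for 19 of the 37 genes and lowest for 9. It was thus at an end of the Dp1Tyb group for 28 of the 37, and for 47.9% of all genes tested. Values of the comparisons with Dp1TybDyrk1a+/+/- hearts are followed by those without heart 2 where leaving it out changed a sign, a call or the size by over 1.5 times. Over all genes with a length, Spearman's rho between transcript length and a heart's difference from the WT median was -0.138 to -0.034 in WT hearts 1 to 6 and 0.091 to 0.132 in WT hearts 7 to 10, so the WT hearts also differed among themselves in this respect. It was -0.21 to 0.131 in Dp1Tyb and -0.154 to 0.232 in Dp1TybDyrk1a+/+/- hearts. Since the labels do not tie WT hearts to litters, litter and genotype cannot be told apart. The part of transcript length in the results was not tested.

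**Figure D1:**
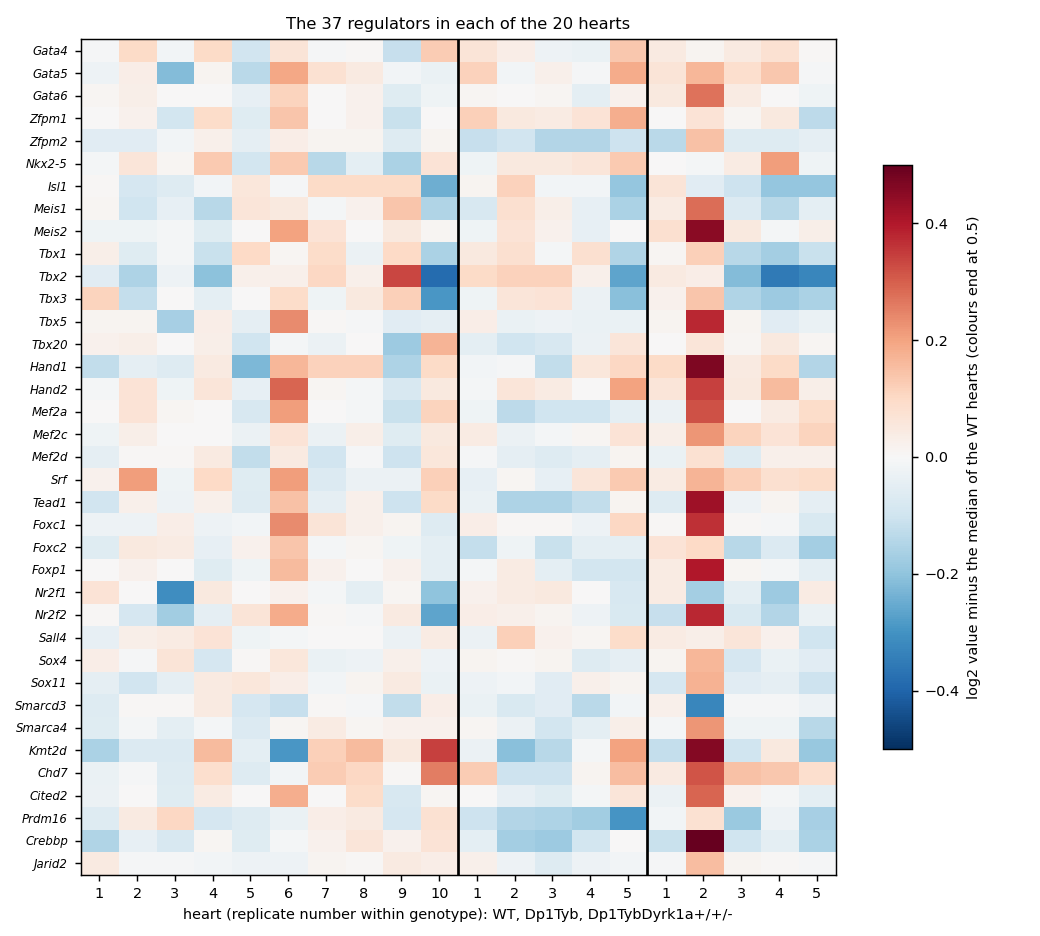
The 37 regulators (rows, ordered by role) in the 20 hearts (columns, by genotype and replicate number), coloured by the log2 value minus the median of the 10 WT hearts, with colours ending at 0.5 in either direction. The column of Dp1TybDyrk1a+/+/- heart 2 is red for most genes, with Crebbp, Hand1, Meis2 and Kmt2d darkest and Smarcd3 blue, and WT heart 6 is the reddest of the WT columns.

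A promoter sequence was listed for 26 of the 37 genes in RefSeq (GRCm38.p6), and for 2 of the 7 described in full below, Prdm16 and Mef2a. Both are shown because these genes had the lowest log2 fold change of the 37 in Dp1Tyb compared with WT and with Dp1TybDyrk1a+/+/- hearts, respectively. Each run is the 250 bases before the listed start, 5′ to 3′ on the minus strand, at chr4:154636874-154637123 for Prdm16 and chr7:67372859-67373108 for Mef2a. Both windows lie inside the RefSeq span of the gene, whose 5′ end is at 154637360 for Prdm16 and 67376456 for Mef2a. The listed start is thus not the outermost start of either gene, and bases before the outermost start were not searched. Capitals mark matches to motifs of the factors described here, searched on both strands. The GATA letters were AGATAA and, as the alternative form, TGATAA. The NKX2-5 letters were TNAAGTG, where N is any base. The T-box letters were AGGTGTGA. The TEAD letters were GGAATG, and the MEF2 consensus and the CArG box of SRF were searched by their standard forms, which can overlap each other.
Prdm16: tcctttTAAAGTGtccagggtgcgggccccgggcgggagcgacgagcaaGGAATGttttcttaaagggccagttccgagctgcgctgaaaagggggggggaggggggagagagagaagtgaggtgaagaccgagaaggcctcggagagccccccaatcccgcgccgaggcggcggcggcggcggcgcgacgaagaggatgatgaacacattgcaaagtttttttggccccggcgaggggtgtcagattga
Mef2a: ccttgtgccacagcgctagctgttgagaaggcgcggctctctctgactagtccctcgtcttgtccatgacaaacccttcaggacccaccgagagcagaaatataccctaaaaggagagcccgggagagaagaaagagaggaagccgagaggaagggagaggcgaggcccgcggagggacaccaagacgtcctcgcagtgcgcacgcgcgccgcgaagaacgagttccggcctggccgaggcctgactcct
The Prdm16 window held TAAAGTG, a match to the NKX2-5 letters, starting 244 bases before the listed start and GGAATG, a TEAD match, 201 bases before it. The Mef2a window held none of these letters. Of 32851 promoter windows of the same length, 10.1% held the NKX2-5 letters, 12.6% the TEAD letters and 16.6% the GATA letters, and over all windows the T-box letters, the MEF2 consensus and the CArG box were found in 1.12%, 2.92% and 1.47%. The 26 genes had 33 windows, of which 4 held a GATA match, 5 a TEAD match, 2 an NKX2-5 match and 1 a CArG box. Counted by gene, the numbers were the same. A match of letters is not a bound site.

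The 37 genes spanned a 211-fold range of level in WT hearts. Per kb of canonical transcript, the median normalized count over the 10 WT hearts was highest for Tbx20, a T-box factor of the working myocardium, at 1680 (range 1480 to 1890). It was lowest for Sall4, the zinc finger gene of Okihiro syndrome, at 7.96 (7.71 to 8.34), and for Tbx1, a pharyngeal and outflow progenitor factor, at 9.92 (8.88 to 10.7). Isl1, the marker of second heart field progenitors, which have mostly differentiated by this stage, stood at 49 (41.4 to 52.6). The median of all genes tested was 125 on this scale, and 30 of the 37 genes lay above it.

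Next after Tbx20 came Foxp1 (1490), Sox4 (1310), Mef2a (1100) and Gata4 (1000), followed by the BAF ATPase gene Smarca4 (823), Tead1 (807), Hand2 (802) and Nkx2-5 (768). Gata6, Smarcd3, Meis2, Mef2d, Srf, Meis1, Tbx5, Mef2c and Nr2f2 formed a run from 670 down to 409, and Cited2, Jarid2, Sox11, Zfpm1 and Crebbp lay between 306 and 241. From 174 for Hand1 to 110 for Tbx2, the ranges over WT hearts overlapped from each gene to the next through Gata5, Chd7, Nr2f1, Foxc1, Kmt2d, Foxc2, Zfpm2 and Tbx3. Prdm16, at 75.1 (70.9 to 80.8), was among the 4 least expressed. Of the 36 pairs of neighbours in this order, 28 had WT ranges that overlapped. The order depends on the length used: with all annotated exons as the length, Foxp1 moved from rank 2 to rank 22, Sox4 (1310) came before Tbx20 (1280), and Tbx1 (7.09) came after Sall4 (7.3).

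**Figure D2:**
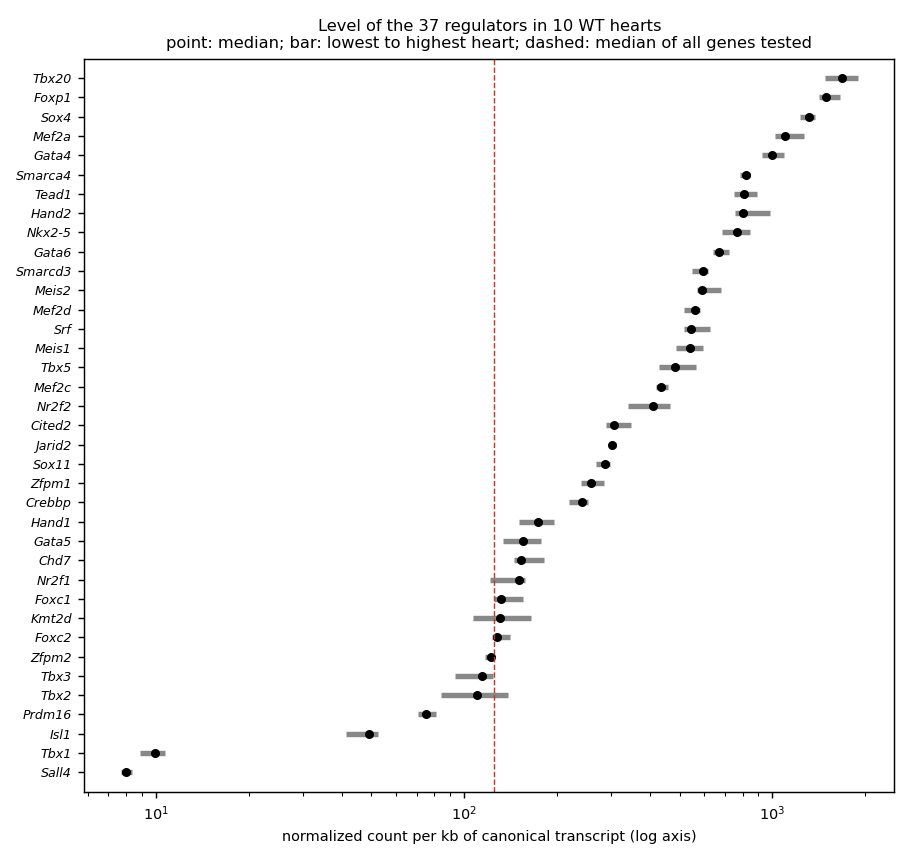
Level of each regulator in the 10 WT hearts as normalized counts per kb of canonical transcript, on a log axis, with the point at the median and the bar from the lowest to the highest heart. Tbx20 is at 1680 and Sall4 at 7.96, and the dashed line is the median of all genes tested, 125.

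Within families 1 member usually dominated per kb of canonical transcript, and the shares depend on that choice of length. Gata4 made up 55.0% ± 1.2 (SD, n = 10) of the per-kb sum of the 3 GATA genes in WT hearts, Gata6 36.6% ± 0.966 and Gata5 8.41% ± 0.513. Tbx20 made up 70.0% ± 2.18 of the 5 T-box genes and Tbx5 20.2% ± 1.28. Hand2 made up 82.5% ± 1.06 of the HAND pair, Sox4 82.1% ± 0.72 of the Sox4 and Sox11 pair, and Nr2f2 73.3% ± 1.22 of the COUP-TF pair, whereas Foxc1 and Foxc2 were near equal (50.9% ± 0.881 for Foxc1) and so were Meis1 and Meis2 (46.9% ± 1.51 for Meis1). Of the 9 families examined, the shares differed without overlap between some of the groups in the FOG and MEF2 families. In the FOG pair Zfpm2 took 30.6% to 33.3% in the 10 WT hearts, 27.9% to 30.1% in the 5 Dp1Tyb hearts and 30.1% to 33.4% in the Dp1TybDyrk1a+/+/- hearts. In the MEF2 family Mef2a took 52.0% to 55.1% in WT, 50.9% to 52.0% in Dp1Tyb and 52.1% to 55.6% in Dp1TybDyrk1a+/+/- hearts. Both shares were thus lowest in the Dp1Tyb hearts, which for Mef2a met the lowest WT heart at this rounding, and they were not tested.

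The regulators varied more between WT hearts than genes of like level. The SD over the 10 WT hearts had a median of 0.0808 over the 37 genes and of 0.0538 over all genes tested, and 28 of the 37 genes exceeded the median of the 500 genes nearest in level. Tbx2, the T-box repressor of the non-chamber myocardium, varied most, with an SD of 0.193, and Kmt2d, the histone H3K4 methyltransferase gene, followed with 0.185. Jarid2, a component of Polycomb repressive complex 2, varied least, at 0.0268. The spread was smaller than counts alone allow for many genes. For 61.9% of the genes tested, and for 6 of the 37 (Zfpm2, Isl1, Tbx1, Foxc2, Sall4 and Jarid2), the WT SD was smaller than the counting error would be if the value were log2 of a read count. The kind of log transformation is not given in the sources used here, so fold changes and SDs of these genes may be understated. The gaps were widest for Tbx1 (0.0899 against 0.289) and Sall4 (0.037 against 0.224). Normalized counts given here are 2 to the power of the deposited value, which ran down to -2.31. Marker sums, levels per kb and their 211-fold range thus depend on that transformation too, above all for weak genes.

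Between Dp1Tyb and WT hearts the share of the regulators that was called was near that of all genes. Prdm16 was the only 1 of the 37 genes to pass the test (limma, Benjamini-Hochberg adjusted P under 0.05 over all genes), and it was lower in Dp1Tyb. Of all genes tested, 3.08% passed. The median SE of the log2 fold change was 0.0497 over the 37 genes and 0.0324 over all genes tested, so small differences were harder to detect in the 37. At an unadjusted P under 0.05 there were 3 of the 37 (Zfpm2 and Prdm16 lower, Zfpm1 higher), compared with 15.6% of all genes. The hearts of the groups did not overlap for 2 of the 37, Zfpm2 and Prdm16, compared with 2.63% of all genes. The median log2 fold change of the 37 genes was -0.0157 and 24 of them were below 0, and over all genes tested the median was -0.0019 with 51.5% below 0. The 95% intervals of all 37 fold changes lay within ±0.3, a 1.23-fold difference, against 97.3% of all genes. Those of 31 lay within ±0.2, against 90.7% of all genes, and those of 9 within ±0.1, against 47%.

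In Dp1TybDyrk1a+/+/- compared with WT hearts, 0 of the 37 genes passed the test in limma, and 0.712% of all genes did. At an unadjusted P under 0.05 there was 1, Mef2c, which was higher, and 9.64% of all genes. The groups overlapped for every one of the 37, and they did not overlap for 0.64% of all genes. The median log2 fold change was 0.0265 with 12 of the 37 genes below 0, against 52.6% of all genes. Without heart 2 the median was -0.0098 with 22 of the 37 below 0, against 50.9% of all genes. There were then 6 genes at an unadjusted P under 0.05, with Mef2c higher and Zfpm2, Crebbp, Prdm16, Foxc2 and Sox11 lower, against 12.7% of all genes, and 0 of the 37 passed after adjustment in limma.

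Dp1Tyb was also compared directly with Dp1TybDyrk1a+/+/-, which asks what the third functional copy of Dyrk1a goes with. The 2 mutant groups came from separately bred strains, so strain and litter cannot be told apart from the copy number of Dyrk1a there. Of the 37 genes 0 passed in limma, against 1.16% of all genes. There were 5 at an unadjusted P under 0.05, all lower in Dp1Tyb (Mef2c, Mef2a, Zfpm2, Prdm16 and Tead1), against 18.5% of all genes, and the hearts overlapped for all 37, against 5.65% of all genes without overlap. The median was -0.0437 with 27 of the 37 genes below 0, and 48% of all genes were below 0. Without Dp1TybDyrk1a+/+/- heart 2 the median became -0.0059, with 20 of the 37 genes below 0, and 3 were at an unadjusted P under 0.05 (Mef2c, Mef2a and, higher in Dp1Tyb, Zfpm1). In the same fit 49.9% of all genes were below 0 and 17.9% were at an unadjusted P under 0.05. Both comparisons with WT share the same 10 WT hearts.

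**Figure D3:**
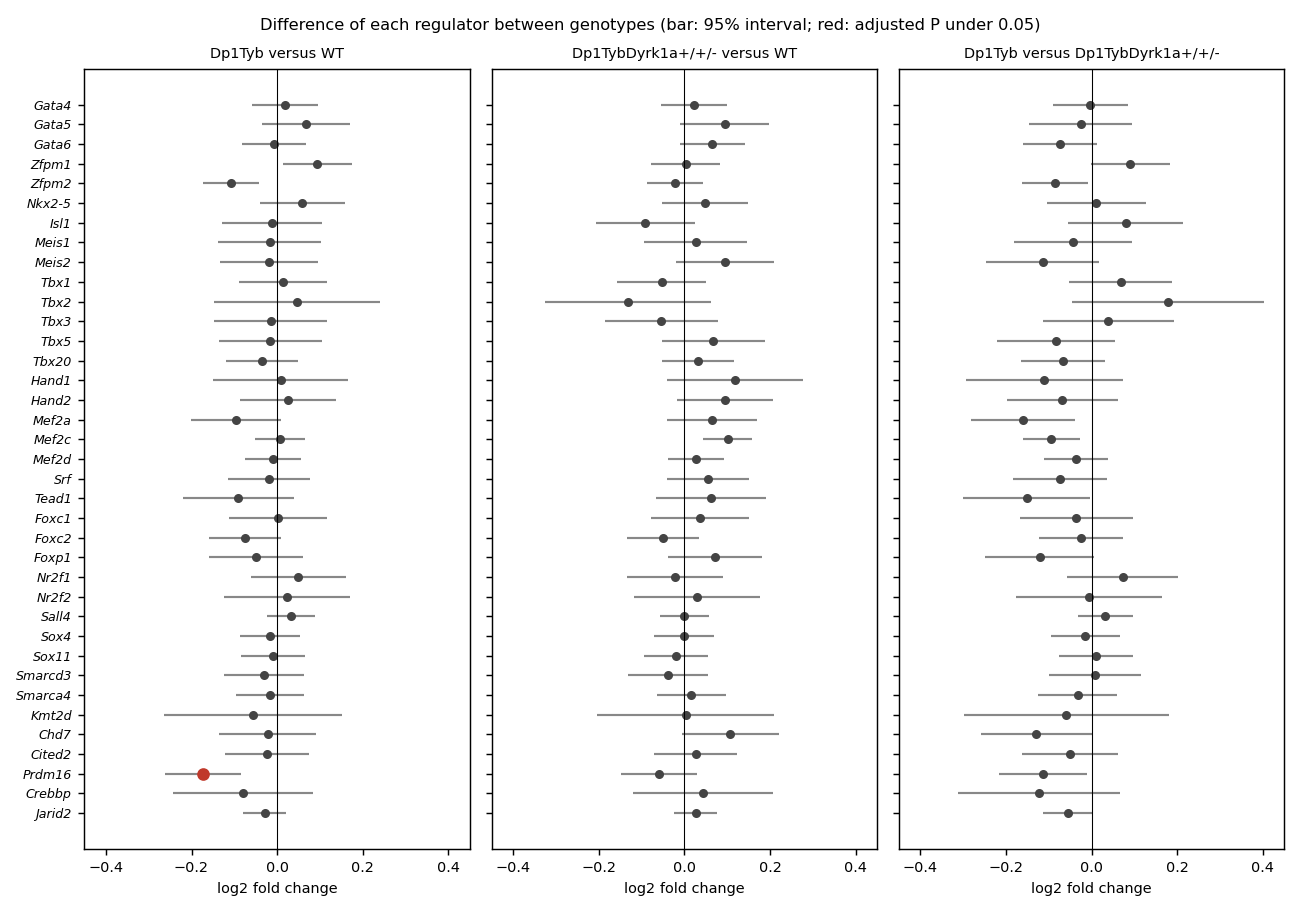
Log2 fold change of each of the 37 regulators in the 3 comparisons, with its 95% interval from limma as a bar and genes past the adjusted threshold in red. Prdm16 in Dp1Tyb compared with WT, at -0.17, is the only red point, and 27 of the 37 points in the right panel lie below 0.

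Among the GATA factors and their cofactors, the opposing values of the FOG genes stood out. GATA4, GATA5 and GATA6 are the zinc finger activators of the early heart, and their log2 fold changes in Dp1Tyb compared with WT were 0.02, 0.07 and -0.01. Zfpm2 (FOG2, chr15:40655042-41104592) encodes the cofactor that binds GATA4 and is needed for septation and for coronary vessels. Its lowest, median and highest WT values were 9.76, 9.82 and 9.86. Dp1Tyb hearts 1 to 5 stood at 9.71, 9.73, 9.68, 9.68 and 9.72, and the Dp1TybDyrk1a+/+/- hearts at 9.69, 9.97, 9.76, 9.76 and 9.78. All 5 Dp1Tyb hearts were below all 10 WT hearts, and so were 3 of the 5 Dp1TybDyrk1a+/+/- hearts, 2 of them by less than the rounding of the values above, while heart 2 of that group was above all WT hearts. The log2 fold change in Dp1Tyb was -0.11 ± 0.0317 (SE) with an adjusted P of 0.0708 in limma, which missed the threshold. It passed in 4 of 31 alternative fits, among them the fit without Dp1TybDyrk1a+/+/- heart 2 (adjusted P = 0.00297) and the fit on the 2 groups alone (adjusted P = 0.00497), and failed in the others (up to 0.241). Against Dp1TybDyrk1a+/+/- the difference was -0.09 (adjusted P = 0.213 in limma), or -0.04 without heart 2. In Dp1TybDyrk1a+/+/- compared with WT it was -0.02 (adjusted P = 0.835), or -0.07 without heart 2 (unadjusted P = 0.00714, adjusted P = 0.203 in limma). Zfpm1, which encodes the related cofactor FOG1, had a log2 fold change of 0.09 in Dp1Tyb (adjusted P = 0.231 in limma), with Dp1Tyb hearts at 10.22 to 10.36 and WT hearts at 10.07 to 10.32.

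Homeodomain and TALE factors gave no call, where 3.08%, 0.712% and 1.16% of all genes passed in the 3 comparisons. Nkx2-5, the earliest cardiac homeobox gene, averaged 10.21 ± 0.105 (SD, n = 10) in WT, 10.27 ± 0.0542 (SD, n = 5) in the Dp1Tyb hearts and 10.26 ± 0.0957 (SD, n = 5) in Dp1TybDyrk1a+/+/- hearts. Isl1 had a log2 fold change of -0.01 in Dp1Tyb and of -0.09 in Dp1TybDyrk1a+/+/- compared with WT. Meis1 and Meis2, which encode partners of HOX and GATA proteins, both had -0.02 in Dp1Tyb. For Meis2 the value in Dp1TybDyrk1a+/+/- was 0.10, where heart 2 stood at 11.70 and the next heart at 11.33, and it was 0.01 without heart 2.

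T-box genes showed wide spread. Tbx2 (chr11:85832615-85841948) restrains chamber genes in the atrioventricular canal. It ranged from 8.25 to 8.97 over the WT hearts, with a median of 8.63. In Dp1Tyb hearts 1 to 5 it was 8.73, 8.75, 8.75, 8.66 and 8.37, and in the Dp1TybDyrk1a+/+/- hearts 8.68, 8.67, 8.42, 8.28 and 8.31. Every mutant heart lay within the WT range, with Dp1Tyb hearts 1, 2 and 3 higher than every Dp1TybDyrk1a+/+/- heart. The log2 fold change of Tbx2 between Dp1Tyb and Dp1TybDyrk1a+/+/- was 0.18 ± 0.108 (SE, adjusted P = 0.383 in limma, 95% interval -0.05 to 0.40). Within sequencing lanes 3, 6 and 7 this difference was -0.12, 0.39 and 0.27. These lanes held 2, 2 and 1 Dp1Tyb hearts and 1, 1 and 3 Dp1TybDyrk1a+/+/- hearts. Tbx3, its close relative in the conduction system, and Tbx5, the Holt-Oram syndrome gene, had -0.02 each in Dp1Tyb compared with WT, Tbx20 had -0.04 and Tbx1 0.01.

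HAND factors pattern the ventricles, Hand1 mainly on the left and Hand2 on the right and in the cushions. Hand1 (chr11:57828713-57832147) had a lowest, median and highest WT value of 8.15, 8.38 and 8.54. The Dp1Tyb hearts stood at 8.36, 8.37, 8.25, 8.43 and 8.48, inside the WT range. The Dp1TybDyrk1a+/+/- hearts stood at 8.47, 8.84, 8.42, 8.47 and 8.23, so heart 2 alone was above the WT range. Its log2 fold change in Dp1TybDyrk1a+/+/- compared with WT was 0.12 ± 0.0761 (SE, adjusted P = 0.63 in limma) and 0.03 without heart 2. For Hand2 the values were 0.03 in Dp1Tyb and 0.10 in Dp1TybDyrk1a+/+/-, or 0.04 in the latter without heart 2.

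MADS-box and TEAD factors drive muscle structural genes, and all 5 had values below 0 in Dp1Tyb compared with Dp1TybDyrk1a+/+/-. Of all genes tested, 48% were below 0 there. Mef2a (chr7:67231163-67376456) had the highest WT level of the 3 MEF2 genes per kb of canonical transcript. With all annotated exons as the length, Mef2d (398) came before Mef2a (393). On the log2 scale Mef2a ran from 12.46 through a median of 12.57 to 12.78 in WT. The Dp1Tyb hearts stood at 12.55, 12.44, 12.47, 12.47 and 12.52, and the Dp1TybDyrk1a+/+/- hearts at 12.54, 12.89, 12.57, 12.61 and 12.66. Only Dp1Tyb heart 1 reached the Dp1TybDyrk1a+/+/- values, and 4 of the 5 were within the WT range. The difference between the mutant groups was -0.16 ± 0.0584 (SE, adjusted P = 0.151 in limma) and -0.10 without heart 2 (adjusted P = 0.27). Its value compared with WT was -0.10 in Dp1Tyb and 0.06 in Dp1TybDyrk1a+/+/-, or 0.005 in the latter without heart 2. Exons of Mef2a share 1081 bases with Lysmd4 on the opposite strand, and whether reads were counted by strand is not given in the sources used here, so reads from the pair may not have been told apart.

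Mef2c, which is needed for the right ventricle and outflow tract, was 11.54 to 11.67 in WT, 11.57 to 11.67 in Dp1Tyb and 11.63, 11.82, 11.71, 11.67 and 11.71 in the Dp1TybDyrk1a+/+/- hearts. It had the smallest unadjusted P of the 37 genes in Dp1TybDyrk1a+/+/- compared with WT, at 0.10 ± 0.028 (SE, adjusted P = 0.153 in limma), and was 0.07 there without heart 2 (adjusted P = 0.212). Against Dp1Tyb the same gene differed by -0.09 (adjusted P = 0.131). It passed in 1 of 31 alternative fits in each of these comparisons, the fit that weighted hearts by their quality.

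Tead1 (chr7:112679356-112906784) encodes the DNA-binding partner of YAP in growing myocardium. Its WT hearts ran from 12.87 through a median of 12.97 to 13.12. The Dp1Tyb hearts stood at 12.94, 12.82, 12.82, 12.85 and 12.99, and the Dp1TybDyrk1a+/+/- hearts at 12.91, 13.40, 12.95, 12.99 and 12.93. Dp1Tyb hearts 2, 3 and 4 were below all other hearts, and Dp1TybDyrk1a+/+/- heart 2 was above all others. The difference between the mutant groups of -0.15 ± 0.0718 (SE, adjusted P = 0.26 in limma) became -0.06 without that heart. Srf and Mef2d had -0.02 and -0.01 in Dp1Tyb compared with WT.

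**Figure D4:**
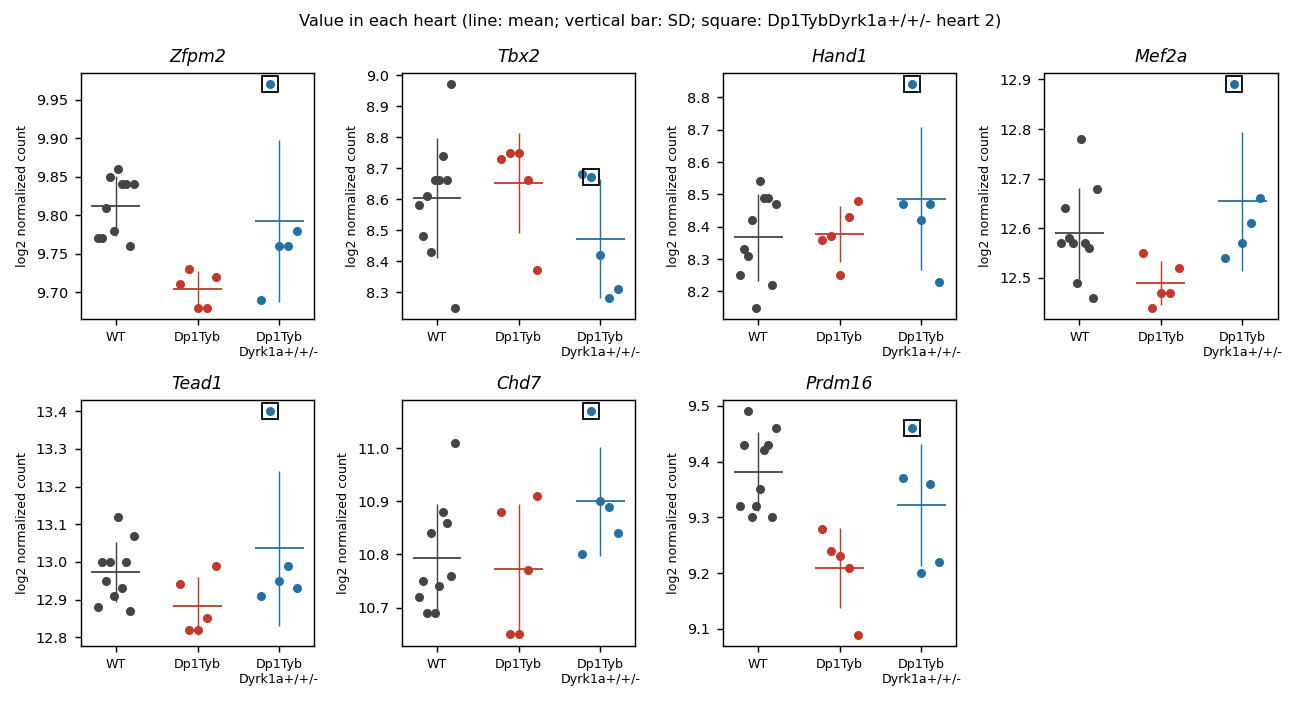
Log2 normalized count of the 7 regulators described in full in each heart (points), with the mean of each genotype as a horizontal line and the SD as a vertical bar. Dp1TybDyrk1a+/+/- heart 2 is in a square and is the highest heart of its group in 6 of the 7 panels, and all 5 Dp1Tyb hearts lie below the WT hearts for Zfpm2 and Prdm16.

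Of the forkhead factors, Foxc1 and Foxc2, which act in the second heart field and cushions, had log2 fold changes of 0.00 and -0.07 in Dp1Tyb compared with WT, and Foxp1, which acts in myocardial growth, had -0.05. Nuclear receptors Nr2f1 and Nr2f2, which give atrial identity, had 0.05 and 0.02. Sall4 had 0.03, and the SOX genes Sox4 and Sox11, which are needed for outflow tract septation, had -0.02 and -0.01. None of these 8 genes passed the test in any comparison in limma, and the count of the 8 at an unadjusted P under 0.05 was 0 in each. Over all genes tested that share was 15.6%, 9.64% and 18.5% in the 3 comparisons, in the order given above. Without Dp1TybDyrk1a+/+/- heart 2 the count of the 8 was 2 in that group compared with WT, against 12.7% of all genes. These were Sox11 at -0.07 (unadjusted P = 0.0133, adjusted P = 0.266 in limma) and Foxc2 at -0.08 (unadjusted P = 0.0416, adjusted P = 0.371 in limma).

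Chromatin regulators and coactivators were all below 0 in Dp1Tyb compared with WT, 8 of 8, with a median of -0.03. Of all genes tested, 51.5% were below 0 there. Only Prdm16 among the 8 passed, against 3.08% of all genes. Smarca4 and Smarcd3, the ATPase and a heart-enriched subunit of the BAF remodelling complex, had -0.02 and -0.03. Kmt2d, the Kabuki syndrome gene, had -0.06, Crebbp, a histone acetyltransferase gene, -0.08, Cited2, which binds CBP and is needed for septation, -0.02, and Jarid2 -0.03. In Dp1TybDyrk1a+/+/- compared with WT, 6 of the 8 were above 0, with a median of 0.02, where 52.6% of all genes were below 0. Without heart 2 only Smarcd3 and Chd7, 2 of the 8, were above 0, with a median of -0.04. In that fit 50.9% of all genes were below 0. Crebbp in that group stood at 11.90 in heart 2 and at 11.30 or lower in the other 4, and its log2 fold change turned from 0.04 to -0.09 without heart 2.

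Chd7 (chr4:8690402-8868449), the remodeller gene of CHARGE syndrome, ran from 10.69 through a median of 10.76 to 11.01 in WT. Its values were 10.88, 10.65, 10.65, 10.77 and 10.91 in the Dp1Tyb and 10.80, 11.07, 10.90, 10.89 and 10.84 in the Dp1TybDyrk1a+/+/- hearts. Dp1Tyb hearts 2 and 3 lay below all WT hearts and Dp1TybDyrk1a+/+/- heart 2 above them all, while the other mutant hearts lay within the WT range. The difference between the mutant groups was -0.13 ± 0.0627 (SE, adjusted P = 0.274 in limma), or -0.09 without heart 2 (adjusted P = 0.477). Compared with WT, the log2 fold change of Chd7 in Dp1TybDyrk1a+/+/- was 0.11 ± 0.0543 (SE, adjusted P = 0.547), or 0.06 without heart 2 (adjusted P = 0.642).

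Prdm16 (ENSMUSG00000039410, chr4:154316122-154637360) encodes a zinc finger regulator with a methyltransferase-like domain that is known for left ventricular non-compaction and cardiomyopathy. In WT hearts the lowest, median and highest values were 9.30, 9.38 and 9.49. Dp1Tyb hearts 1 to 5 stood at 9.28, 9.24, 9.23, 9.21 and 9.09, and the Dp1TybDyrk1a+/+/- hearts at 9.37, 9.46, 9.20, 9.36 and 9.22. All 5 Dp1Tyb hearts were below all 10 WT hearts, though heart 1 only by 0.02, and the Dp1TybDyrk1a+/+/- hearts divided, with 3 within the WT range and 2 below it.

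The log2 fold change of Prdm16 in Dp1Tyb compared with WT was -0.17 ± 0.043 (SE, 95% interval -0.26 to -0.08), which is 0.887 times the WT level, with an adjusted P of 0.0294 in limma. Within lanes 3, 6 and 7 it was -0.20, -0.15 and -0.16, from 2, 2 and 1 Dp1Tyb hearts against 4, 4 and 2 WT hearts. The call was present in 24 of 31 alternative fits. It was lost with no filter on low values (adjusted P = 0.0554), with Xist as a covariate (0.0641), without WT heart 10 (0.0508), and without Dp1Tyb heart 2, 3, 4 or 5 (0.053, 0.064, 0.0738 and 0.106), while the fold change stayed between -0.19 and -0.14. In Dp1TybDyrk1a+/+/- hearts the value compared with WT was -0.06 (adjusted P = 0.676), or -0.09 without heart 2 (adjusted P = 0.358). The direct difference between the mutant groups was -0.11 ± 0.0496 (SE, adjusted P = 0.225), with an interval from -0.22 to -0.01. The lower level of Prdm16 was therefore not shown to differ between them. Exons of Prdm16 overlap those of B230104I21Rik, listed at 0 in every heart, and Gm57100, and exons of Zfpm2 overlap those of Gm63080, all on the opposite strand, and levels of Gm57100 and Gm63080 were not analysed here.

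Levels of cell type markers were set beside these values. Mesenchyme and fibroblast markers summed to 96515 to 140780 normalized counts in WT, 121568 to 142669 in Dp1Tyb and 100311 to 143628 in Dp1TybDyrk1a+/+/- hearts, and 6 of 6 were above 0 in Dp1Tyb compared with WT, with a median of 0.09 and no gene passing in limma (2 at an unadjusted P under 0.05). Of the 9 cardiomyocyte markers, 6 were below 0 in Dp1Tyb compared with WT and 8 below 0 compared with Dp1TybDyrk1a+/+/-, again with none passing in limma (2 unadjusted in each). Of all genes tested, 51.5% were below 0 in Dp1Tyb compared with WT, 15.6% were at an unadjusted P under 0.05 and 3.08% passed. Between the mutant groups these shares were 48%, 18.5% and 1.16%. Endothelial and endocardial markers ranged from 19433 to 21730 in WT and from 19965 to 22349 in Dp1Tyb hearts, and Plvap, a component of endothelial diaphragms, passed in Dp1Tyb (log2 fold change 0.17, adjusted P = 0.0367 in limma). Epicardial, smooth muscle, macrophage and erythroid sums overlapped between all groups. The part of cell composition in the values of the 37 genes was not tested.

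Other regulators of the heart were compared in the same way. Of 59 other cardiac transcription factors 56 passed the filter, and in Dp1Tyb compared with WT 1 of them passed the test, Pbx2, a TALE partner of the MEIS proteins, which was higher by 0.10 (adjusted P = 0.0156 in limma). Of all genes tested, 3.08% passed in that comparison, and 0.712% passed in Dp1TybDyrk1a+/+/- compared with WT. In Dp1TybDyrk1a+/+/- hearts the call was Erg, an endothelial ETS factor that lies in the duplicated interval and so is present in 3 copies, which was higher by 0.24 (adjusted P = 0.0214), or by 0.17 without heart 2 (adjusted P = 0.0304). In Dp1Tyb compared with WT the value of Erg was 0.14 (adjusted P = 0.167 in limma), and without Dp1TybDyrk1a+/+/- heart 2 in the fit it passed there too (adjusted P = 0.022). Erg averaged 9.26 ± 0.0839 (SD, n = 10) in WT, 9.40 ± 0.0436 (SD, n = 5) in the Dp1Tyb hearts and 9.50 ± 0.153 (SD, n = 5) in Dp1TybDyrk1a+/+/- hearts. Between the mutant groups 0 of the 56 passed in limma, with 7 at an unadjusted P under 0.05, against 1.16% and 18.5% of all genes.

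Of the 54 other chromatin regulators, 43 were below 0 in Dp1Tyb compared with WT, against 51.5% of all genes, and their median was -0.05. Of the 54, 1 passed there, against 3.08% of all genes. The call in that comparison was Ezh2, the Polycomb methyltransferase gene, at 10.69 ± 0.0355 (SD, n = 10) in WT and 10.61 ± 0.0219 (SD, n = 5) in Dp1Tyb hearts (log2 fold change -0.08, adjusted P = 0.0419 in limma). It was also lower in Dp1Tyb than in Dp1TybDyrk1a+/+/- hearts, by a log2 fold change of -0.11 (adjusted P = 0.0408), as was Brd9, a BAF subunit gene, at -0.12 (adjusted P = 0.049). Of all genes tested, 1.16% passed between the mutant groups. Without heart 2 neither Ezh2 nor Brd9 passed there, at -0.09 for Ezh2 (adjusted P = 0.0546) and -0.10 for Brd9 (adjusted P = 0.0735). Without that heart in the fit Arid2, another BAF subunit gene, passed as lower in Dp1Tyb compared with WT beside Ezh2. In Dp1TybDyrk1a+/+/- compared with WT 0 of the 54 passed in limma, with 3 at an unadjusted P under 0.05, against 0.712% and 9.64% of all genes.

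Cardiac target genes of these factors, such as the natriuretic peptide genes Nppa and Nppb and the myosin genes Myh6 and Myh7, gave no call. Of 20 targets 0 passed in limma in any comparison, with 4, 3 and 4 at an unadjusted P under 0.05 in Dp1Tyb compared with WT, in Dp1TybDyrk1a+/+/- compared with WT and between the mutant groups. In the same order, 15.6%, 9.64% and 18.5% of all genes tested were at that unadjusted P, and 3.08%, 0.712% and 1.16% passed. Between the mutant groups 17 of 20 were below 0, against 48% of all genes, and their median was -0.06. Without Dp1TybDyrk1a+/+/- heart 2 it was 16 of 20, against 49.9% of all genes.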

How the data were processed

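The authors deposited 1 table of log2-transformed, library-size-normalized counts for 48795 genes (19473 at 0 in every heart) in the 20 hearts. The submitters' processing notes name Trimmomatic 0.36, STAR 2.5.2a, RSEM 1.2.31, DESeq2 and GRCm38; which log transformation was used, the strand setting and the read totals are not given in the sources used here, so depth per heart is unknown. Ensembl identifiers were named with GENCODE M39 (44565 matched), and positions are from RefSeq on GRCm38.p6.

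The authors used DESeq2 at an adjusted P under 0.05, which needs counts. Here the log2 values were fitted with limma 3.58.1 (R 4.3.3, eBayes with trend) over all 20 hearts, with 1 mean per genotype, for 15304 genes with a mean normalized count (2 to the power of the value) of at least 10, and P values were adjusted over all of them with the Benjamini-Hochberg method. The scripts were tested on simulated data. Levels, motifs and figures used Python 3.11.15. Levels per kb divide by the length of the GENCODE canonical transcript.

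Hearts are numbered in accession order within genotype, so numbers pair nothing. P values measure the spread between single hearts. The labels name sequencing lanes (3, 6 and 7). Lane 7 held 3 Dp1TybDyrk1a+/+/-, 1 Dp1Tyb and 2 WT hearts, so lanes were not balanced over the groups. Members described in full are those called in at least 1 comparison and the 3 with the largest absolute log2 fold change in each. Mef2c and Zfpm1 are given in more detail for their unadjusted P. From other lists, called genes were named. Members and lists were chosen with earlier results of these data known. The alternatives were no filter or a minimum of 100, 2 other scalings, a pseudocount of 1, 3 other settings of the spread, lane or Xist as covariates, the 2 groups alone, and each heart left out.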

Additional observations from a re-analysis of the deposited data

Results flagged for a closer look

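Of 111 sets of hearts (37 regulators in 3 groups), 23 held 1 heart that lay apart from its group by Dixon's test. For a single set chance gives about 1 in 20, and the share over all genes was not computed. In 12 of the 23 the heart was Dp1TybDyrk1a+/+/- heart 2, and in 5 it was WT heart 6. These 2 hearts were at an end of their groups for 76% and 46% of all genes tested, so the count cannot be read as a trait of the regulators.

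Dp1TybDyrk1a+/+/- heart 2 was high, on the log2 scale, for Tead1 (13.40, next heart 12.99), Crebbp (11.90, next 11.30), Gata6 (11.86, next 11.64), Foxp1 (11.82, next 11.46), Meis2 (11.70, next 11.33) and Sox11 (11.39, next 11.17). It was also high for Tbx5 (11.27, next 10.91), Nr2f2 (11.13, next 10.72), Jarid2 (11.03, next 10.89), Foxc1 (9.95, next 9.59) and Cited2 (9.78, next 9.51). It was low for Smarcd3 (10.02, next 10.32). WT heart 6 was high for 5 genes, Foxp1 (11.58, next 11.44), Meis2 (11.45, next 11.32), Hand2 (11.18, next 10.96), Tbx5 (11.13, next 10.93) and Foxc1 (9.82, next 9.65). Of the 5 WT heart 6 genes, 4 (Foxp1, Meis2, Tbx5 and Foxc1) were also among those of Dp1TybDyrk1a+/+/- heart 2.

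The other hearts that lay apart did so for 1 gene each. In Dp1Tyb, heart 4 was low for Gata6 (11.54, next 11.59), heart 5 was low for Tbx2 (8.37, next 8.66) and heart 1 was high for Tbx5 (10.93, next 10.87). In Dp1TybDyrk1a+/+/-, heart 4 was high for Nkx2-5 (10.43, next 10.26) and heart 5 was low for Sall4 (5.26, next 5.38). WT heart 10 was low for Isl1 (6.71, next 6.87).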

How the results depend on the processing

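The count of the 37 regulators past the threshold in Dp1Tyb compared with WT was 1, and it became 0 with no filter on low values, 0 with Xist as a covariate, 2 with hearts weighted by quality and 2 with only the 2 groups compared. Over the fits that each lacked 1 heart it was 0 to 2. In Dp1TybDyrk1a+/+/- compared with WT, and between the mutant groups, the count of 0 became 1 with hearts weighted and stayed at 0 with any single heart left out. Small differences changed sign: Tbx2 in Dp1Tyb compared with WT was -0.0287 with Xist as a covariate, and Tead1 in Dp1TybDyrk1a+/+/- compared with WT was -0.0023 with hearts weighted. Leaving out single hearts gave ranges across 0 for Hand1 (-0.017 to 0.04) and Chd7 (-0.0566 to 0.0085) in Dp1Tyb, and for Zfpm2 (-0.0662 to 0.0037) and Tead1 (-0.0296 to 0.0934) in Dp1TybDyrk1a+/+/-, each compared with WT. The cause was not tested.

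Chosen after seeing the data, setting the median of each heart equal gave 25, 10 and 30 of the 37 regulators below 0 in Dp1Tyb compared with WT, in Dp1TybDyrk1a+/+/- compared with WT and between the mutant groups, and quantile normalization gave 20, 14 and 23. Leaving out both WT heart 6 and Dp1TybDyrk1a+/+/- heart 2 gave 21, 19 and 20. Over all genes, the number called in Dp1Tyb compared with WT was 471, and it was 1422 with hearts weighted, 245 with Xist, 779 with only the 2 groups and 266 to 959 with 1 heart left out. In Dp1TybDyrk1a+/+/- compared with WT it was 109, and 341 with hearts weighted. Between the mutant groups it was 178, and it was 76 with no filter, 273 with a minimum of 100, 1247 with hearts weighted, 29 with lane, 12 with Xist, 3 with only those groups and 30 to 404 with 1 heart left out. No paired analysis was possible because the replicate numbers were given in accession order and the labels do not tie WT hearts to mutant litters. With 5 hearts in each mutant group, the intervals of the 37 genes reach up to 0.40 between the mutant groups.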
